A study of Mus musculus with 9 samples.

Results

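Mycn, Hand2, Phox2a, Gata2, Gata3, Isl1, Tbx2 and Myc were followed in mouse neuroblastoma tumors. These 8 genes encode MYCN, its paralogue MYC, and transcription factors of the adrenergic neuroblastoma circuit. They were taken by symbol from the 54429 symbols of the deposited count table, with earlier results of these data known. The tumors grew from NB9464 cells, a line derived from a neuroblastoma of a TH-MYCN mouse, in which the tyrosine hydroxylase promoter drives a human MYCN transgene. In every group 4000000 cells were placed under the skin of C57BL/6 mice aged 4 to 6 weeks, and treatment began at a tumor volume of 250 mm3. RNA of whole tumors was sequenced in 9 libraries, 3 tumors in each of 3 groups. The Vehicle group received vehicle. The R788 + anti-PDL1 group received R788 (fostamatinib, a prodrug inhibitor of the kinase Syk) at 50 mg/kg on 5 days a week with an antibody that blocks the checkpoint ligand PD-L1. The Rad + R788 + anti-PDL1 group, called the irradiated group here, received the same agents and 10 Gy of radiation. The labels list 4 doses from day 28 to day 37, taken here as antibody doses. All groups share the 1 implanted cell line, and no group had a single agent or radiation alone. The 2 comparisons with Vehicle share the same 3 control tumors.

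Sympathetic neurons and adrenal chromaffin cells arise from the neural crest under a set of transcription factors that switch each other on. PHOX2A, HAND2, GATA2, GATA3, ISL1 and TBX2 belong to that set, and in adrenergic neuroblastoma they occupy each other's enhancers together with amplified MYCN. MYCN and MYC bind DNA with MAX and drive genes of ribosome assembly and metabolism, and the expression of one often goes with little of the other. Neuroblastoma cells can also take a mesenchymal state with low levels of the adrenergic factors.

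The 8 genes are annotated as protein coding (GRCm38, GENCODE M21). Mycn lies at chr12:12936093-12941914 on the minus strand, Hand2 at chr8:57320983-57324633 on the plus strand and Phox2a at chr7:101818313-101822726 on the plus strand. Gata2 lies at chr6:88193891-88207032 (plus), Gata3 at chr2:9857078-9890034 (minus), Isl1 at chr13:116298281-116309689 (minus), Tbx2 at chr11:85832551-85841948 (plus) and Myc at chr15:61985391-61990374 (plus). RefSeq promoter windows (GRCm38.p6, 250 bases before to 50 after the start site) were matched for 6 of the 8 genes in 7 windows. They were searched on both strands for the MYC E-box CACGTG, the GATA motifs AGATAA and TGATAA, the T-box motif GGTGTGA and the homeodomain motif TAATTA, the kinds of site that these factors bind. The upstream 250 bases of Isl1 and Hand2 are shown. Both genes did not overlap between the Vehicle and irradiated groups, as held for 20.5% of all tested genes. Their windows hold motifs of the circuit's own factors. The stretches were picked on both traits, so a pairing of difference and motif is no result. Each is given 5′ to 3′ on the gene's strand, with the matches in capitals.
Isl1, chr13:116309689-116309938, minus strand: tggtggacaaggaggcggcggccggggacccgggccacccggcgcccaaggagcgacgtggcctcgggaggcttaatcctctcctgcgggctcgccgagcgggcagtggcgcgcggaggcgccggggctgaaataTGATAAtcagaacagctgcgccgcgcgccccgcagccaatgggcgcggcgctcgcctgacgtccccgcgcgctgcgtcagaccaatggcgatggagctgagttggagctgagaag
Hand2, chr8:57320733-57320982, plus strand: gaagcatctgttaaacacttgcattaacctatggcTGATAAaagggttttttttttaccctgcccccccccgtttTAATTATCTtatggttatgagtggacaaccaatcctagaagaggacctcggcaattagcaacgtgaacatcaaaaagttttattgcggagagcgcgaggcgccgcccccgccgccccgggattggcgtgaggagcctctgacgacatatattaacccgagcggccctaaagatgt
Counted from the start site, with the first transcribed base as +1, the Isl1 window held TGATAA at -115 to -110, and AGATAA at 11 to 16 past the printed stretch. The Hand2 window held TGATAA at -215 to -210 and TAATTA at -175 to -170, which overlapped AGATAA on the reverse strand at -172 to -167. In the Gata2 windows the only match was GGTGTGA on the reverse strand at 41 to 47. The Mycn, Phox2a and Gata3 windows held none of these letters. Among 32851 RefSeq windows of this length, 9.05% held TGATAA, 11.2% AGATAA, 5.29% TAATTA, 3.98% GGTGTGA and 7.15% CACGTG. These are matches of letters and no binding was measured.

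Library totals ran from 18276683 to 23397886 counts. A count of 0 in a library allows up to 3 counts, equal to 0.115 to 0.221 counts-per-million (CPM, scaled with TMM factors) in these libraries, for counting error only. Irradiated replicate 1 stood apart. Its log2 CPM correlated at 0.865 to 0.907 with the other libraries, which correlated at 0.937 to 0.980 among themselves, and its TMM factor was 0.743. In whole tumors, fewer cells of a type and less RNA per cell cannot be told apart.

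The label of a sympathetic circuit held for only part of the set. Th, which encodes the first enzyme of catecholamine synthesis, had 0 counts in all 9 tumors. Phox2a had counts of 2, 0 and 3 in the Vehicle tumors, 0 in each R788 + anti-PDL1 tumor, and 0, 0 and 1 in the irradiated tumors, so it was at or under the limit of a count of 0 throughout. Dbh, the next enzyme specific to noradrenergic cells, had 1 count in all, in irradiated replicate 3, and chromogranin A (Chga) had 0 to 3 counts. Of 15 genes for sympathetic products, 6 never exceeded 3 counts in any library and 6 passed the low-count filter. Peripherin (Prph), an intermediate filament of peripheral neurons, was well counted at 1365 to 3155, and dopa decarboxylase (Ddc) had 90 to 356 counts. The tumors thus had abundant Hand2 and Mycn RNA next to almost none from Phox2a, Th or Dbh.

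**Figure D1:**
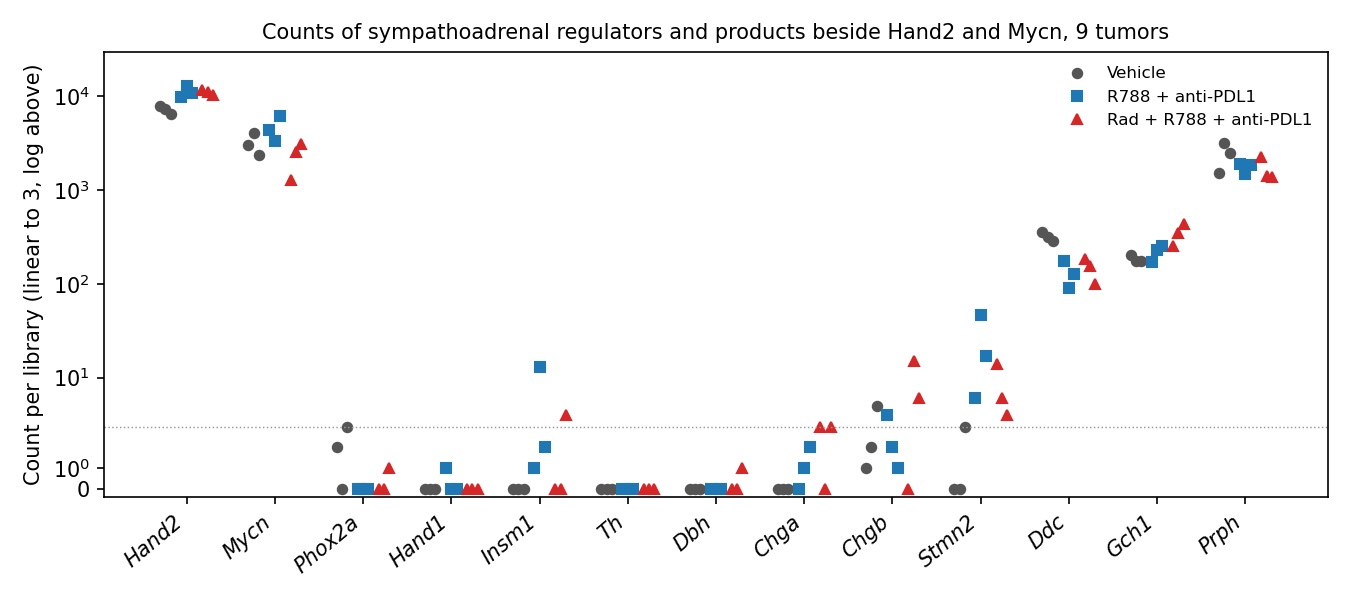
Counts per library (linear up to 3, log above) of Hand2, Mycn and 11 sympathoadrenal regulators and products in 9 tumors, 1 symbol per tumor and group, with a dotted line at 3 counts. Hand2 and Mycn have 1265 counts or more in every tumor, and Th sits at 0.

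The level per kilobase of exon put the 8 genes in the same leading order in all 3 groups: Hand2, then Mycn, then Tbx2. In Vehicle tumors Hand2 stood above 98.4% of 15821 tested genes by level per kilobase, Mycn above 93.8% and Tbx2 above 63.9%. These 3 genes did not overlap with each other within any group. Myc and Gata3 followed in the Vehicle tumors at 1.78 to 2.09 and 0.0452 to 2.86 CPM per kilobase, and their ranges overlapped, as did those of Gata3 and Gata2. Phox2a and Isl1 came last in the Vehicle tumors, with at most 3 counts each, and their order could not be told. In the R788 + anti-PDL1 tumors Isl1 passed Gata3, and in the irradiated tumors Gata3 passed Myc on the mean, although the ranges of Gata3 and Myc overlapped there. In R788 + anti-PDL1 the neighbours Myc and Gata2, and Gata2 and Isl1, overlapped, while Isl1 and Gata3 did not. In the irradiated group Myc and Gata2, and Gata2 and Isl1, overlapped. Lengths taken from the longest transcript gave the same orders.

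**Figure D2:**
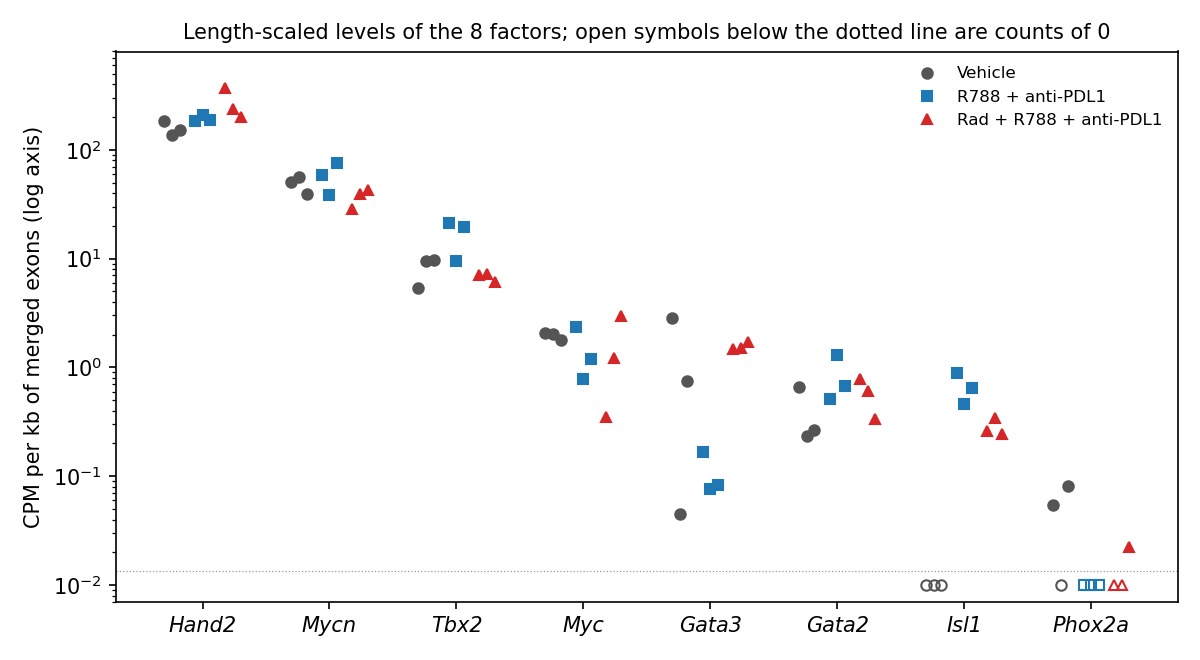
Level of each gene in CPM per kilobase of merged exons (log axis) in 9 tumors, 3 symbols per group, with open symbols below the dotted line for counts of 0. Hand2, Mycn and Tbx2 hold the top 3 places in every group, and Isl1 is at 0 in all Vehicle tumors.

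Isl1, which encodes a LIM homeodomain factor of sympathetic and motor neurons, was the gene of the set that differed most. It had 0 counts in each of the 3 Vehicle tumors. It had 80, 48 and 63 counts in the R788 + anti-PDL1 tumors (3.53, 1.83 and 2.58 CPM), and 14, 27 and 21 counts in the irradiated tumors (1.03, 1.37 and 0.959 CPM). All 6 treated tumors were above all Vehicle tumors, and the R788 + anti-PDL1 tumors were all above the irradiated ones. The mean of the R788 + anti-PDL1 tumors was at least 17.1-fold higher than Vehicle, taken against the mean floor of 3 counts per library, and the mean of the irradiated tumors at least 7.23-fold higher. The edgeR quasi-likelihood test gave Isl1 an adjusted p of 0.0344 for R788 + anti-PDL1 and Vehicle, past the threshold of 0.05, as it did for 0.678% of 15931 tested genes. In the irradiated group against Vehicle it missed the threshold (adjusted p = 0.0605). The irradiated group differed from R788 + anti-PDL1 by -1.23 ± 0.50 (log2 ± SE, adjusted p = 0.256). The fitted log2 fold changes against Vehicle, 8.78 ± 0.89 and 7.55 ± 0.91, depend with their SE on the prior count and are no bound.

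The call of Isl1 depended on the libraries kept. Its fitted log2 difference ran from 8.51 to 8.94 by edgeR with 1 library left out. With 0 counts in Vehicle this size rests on the prior count, so its narrow range does not measure stability. By limma-voom it was 6.64 and by DESeq2 8.15. The call was lost without R788 + anti-PDL1 replicate 1 (adjusted p = 0.111) or 3 (0.216), without Vehicle replicate 2 (0.164) or 3 (0.201), and without irradiated replicate 2 (0.0569) or 3 (0.0520). Leaving out any 1 of these R788 + anti-PDL1 or Vehicle libraries left no gene called in this comparison. The Isl1 call was kept without R788 + anti-PDL1 replicate 2 (0.0417), Vehicle replicate 1 (0.0269) or irradiated replicate 1 (0.00670), and DESeq2 gave an adjusted p of 8.27e-08. Without irradiated replicate 1 the irradiated group also differed from Vehicle (adjusted p = 0.0362). Among all 54429 symbols, Isl1 alone had 0 counts in the 3 Vehicle tumors and at least 10 counts in each of the 6 treated tumors, and no symbol had the reverse. This criterion and its minimum were chosen after the values were seen, and the lowest treated count of Isl1 was 14. With a lower minimum Isl1 is not alone. Zfpm2 also had 0 counts in the Vehicle tumors and a count in every treated tumor, 1 at the lowest.

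**Figure D3:**
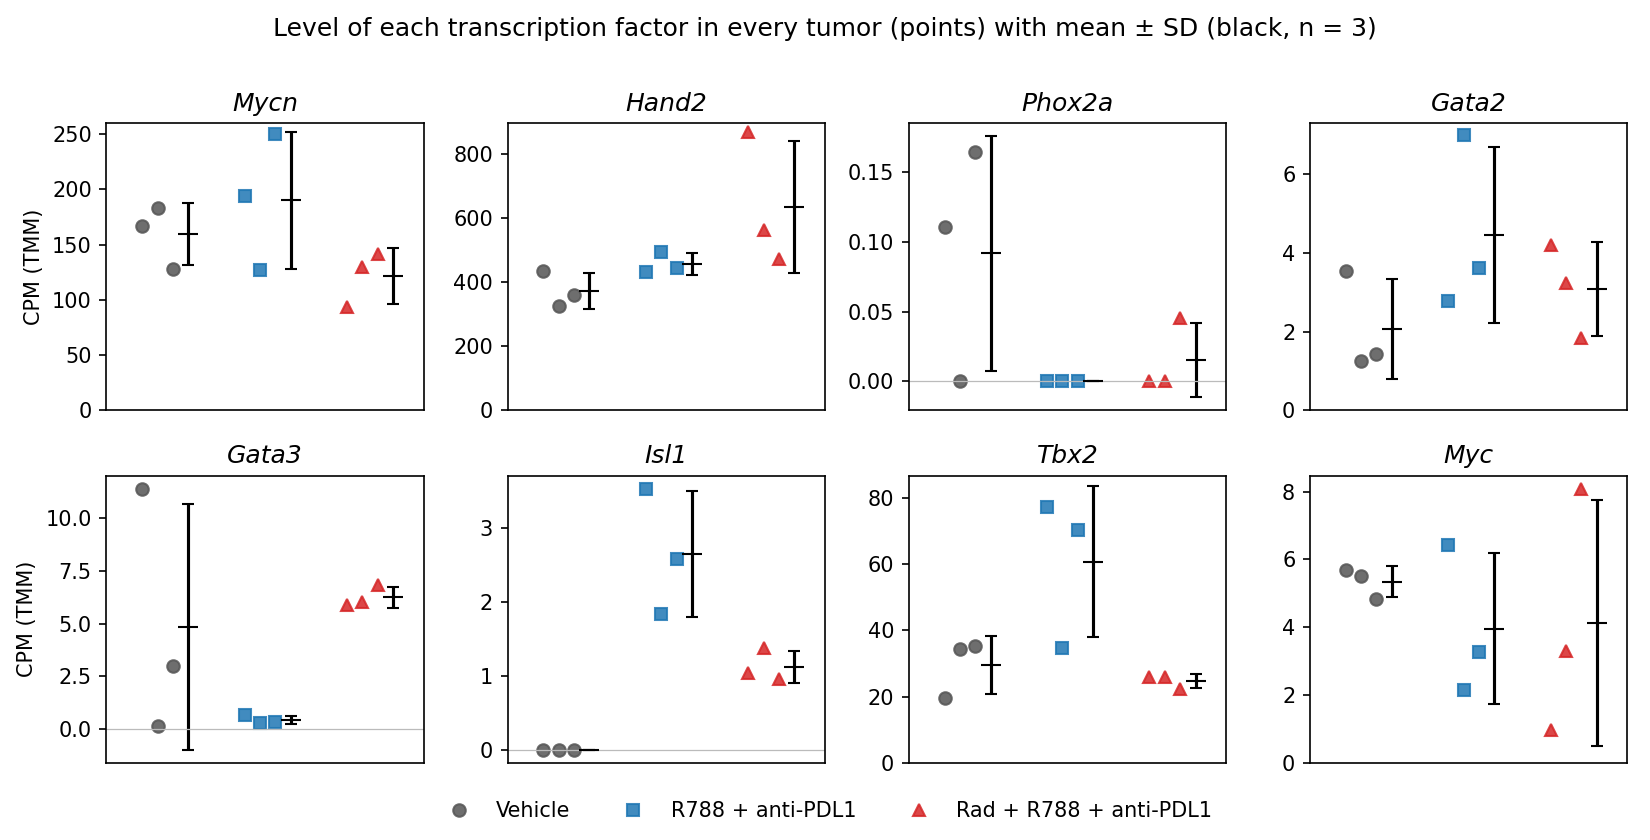
CPM (TMM scaled) of the 8 genes, with 1 symbol per tumor (grey Vehicle, blue R788 + anti-PDL1, red Rad + R788 + anti-PDL1) and the mean ± SD of each group in black (n = 3). Isl1 is at 0 in all Vehicle tumors and above 0 in all others, Gata3 has its lowest mean in the R788 + anti-PDL1 tumors, and Hand2 is highest on the mean in the irradiated tumors.

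Over the tested members, 1 of 7 was called in R788 + anti-PDL1 against Vehicle, and none in the irradiated group against Vehicle or against R788 + anti-PDL1, where edgeR called 0.0439% and 0.00628% of all tested genes. At an unadjusted p under 0.05 there were 3, 2 and 4 of 7 members, against 11.7%, 13.2% and 18.4% of all genes. DESeq2 called 2, 1 and 2 of the 7, against 4.86%, 3.85% and 5.62% of the genes to which it gave an adjusted p. Phox2a failed the filter on low counts.

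Mycn is the mouse counterpart of MYCN, the gene amplified in high-risk neuroblastoma. Mouse Mycn was at 167, 183 and 128 CPM in the Vehicle tumors and 194, 127 and 250.3 CPM in the R788 + anti-PDL1 tumors. In the irradiated tumors it was at 93.3, 130.0 and 141 CPM. The ranges of the 3 groups overlapped, with the highest value in R788 + anti-PDL1 replicate 3 and the lowest in irradiated replicate 1. The means were 160 ± 28.3, 190.2 ± 61.9 and 122 ± 25.2 CPM (SD, n = 3). The log2 differences were 0.25 ± 0.28 for R788 + anti-PDL1 against Vehicle (adjusted p = 0.801), -0.39 ± 0.28 for the irradiated group against Vehicle (adjusted p = 0.510) and -0.65 ± 0.28 for the irradiated group against R788 + anti-PDL1 (adjusted p = 0.265). The count table lists mouse genes, and whether reads of the human MYCN transgene were counted at mouse Mycn was not tested.

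Myc was far lower, at 5.69, 5.52 and 4.82 CPM in the Vehicle tumors. It was at 6.44, 2.14 and 3.28 CPM in the R788 + anti-PDL1 tumors and at 0.958, 3.30 and 8.08 CPM in the irradiated tumors. The Vehicle tumors lay close together and inside the range of both treated groups, and the irradiated tumors held both the lowest and the highest value. None of its differences passed the test (log2 -0.44 ± 0.67, -0.37 ± 0.67 and 0.07 ± 0.67, adjusted p 0.859, 0.796 and 0.962). The irradiated group turned to a log2 difference of 0.13 from Vehicle without irradiated replicate 1, and to -0.87 from R788 + anti-PDL1 without irradiated replicate 3. In irradiated replicate 3 the summed level of 7 macrophage markers, all counted, was 1221 CPM against 184 to 440 CPM in the other 8 tumors, and that of 8 T cell markers was 27.2 CPM against 3.23 to 13.8 CPM. The part of these cells in the Myc level was not tested.

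Per length, Mycn exceeded Myc in every tumor, 24.1, 27.3 and 21.8 times in Vehicle, 24.7, 48.4 and 62.6 times in R788 + anti-PDL1, and 77.3, 32.3 and 14.4 times in the irradiated group. The 3 R788 + anti-PDL1 ratios included 2 that were above all Vehicle ratios, and the irradiated ratios lay on both sides of them. The mean log2 ratio differed by 0.79 between R788 + anti-PDL1 and Vehicle (two-sided exact permutation p = 0.2), by 0.44 between the irradiated group and Vehicle (exact p = 0.7) and by -0.35 between the treated groups (exact p = 0.7). With 3 tumors a group the smallest p that this test allows is 0.1.

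Hand2, a basic helix-loop-helix factor of the sympathetic lineage, was the most abundant of the set. It was at 434, 325 and 359 CPM in the Vehicle tumors, 430.0, 493 and 442 CPM in the R788 + anti-PDL1 tumors, and 867, 560.3 and 472 CPM in the irradiated tumors. The irradiated tumors were all above the Vehicle tumors, with irradiated replicate 1 far above the rest, while R788 + anti-PDL1 overlapped with Vehicle. The log2 difference of the irradiated group from Vehicle was 0.77 ± 0.26 (adjusted p = 0.292), and 0.50 without irradiated replicate 1. R788 + anti-PDL1 differed from Vehicle by 0.29 ± 0.25 (adjusted p = 0.741), and the irradiated group from R788 + anti-PDL1 by 0.48 ± 0.25 (adjusted p = 0.328). In these 3 comparisons, in the order R788 + anti-PDL1 against Vehicle, irradiated against Vehicle and irradiated against R788 + anti-PDL1, the groups did not overlap for 1, 2 and 3 of the 7 tested members, beside 30.1%, 20.5% and 27.4% of all tested genes.

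Gata3, a zinc finger factor of sympathetic neurons that also directs T helper cells and skin cells, had its lowest group mean in the R788 + anti-PDL1 tumors. They had 15, 8 and 8 counts (0.661, 0.306 and 0.328 CPM), against 80, 119 and 149 in the irradiated tumors (5.90, 6.04 and 6.80 CPM). The Vehicle tumors spread over 206, 4 and 55 counts (11.4, 0.180 and 3.01 CPM), across the ranges of both treated groups, and Vehicle replicate 2 had the lowest count of all. The irradiated tumors were all above the R788 + anti-PDL1 tumors, by 3.84 ± 1.10 on the log2 scale (adjusted p = 0.221), and R788 + anti-PDL1 differed from Vehicle by -3.48 ± 1.08 (adjusted p = 0.227). DESeq2 called both (adjusted p = 0.00450 and 0.0108), edgeR neither. The irradiated group against Vehicle gave 0.37 ± 0.95 (adjusted p = 0.859), which turned to -0.21 without Vehicle replicate 2. Leaving out Vehicle replicate 1 took the difference between R788 + anti-PDL1 and Vehicle to -1.84.

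Of 4 keratinocyte markers, 1 passed the filter. Krt5 was at 46.5 to 75.0 CPM in the irradiated tumors, 3.05 to 7.51 CPM in Vehicle and 1.90, 63.1 and 22.7 CPM in R788 + anti-PDL1, while Krt14, its partner in basal skin, ran the other way, with 4, 41 and 43 counts in Vehicle, 0 in 5 of the 6 treated tumors and 2 in irradiated replicate 2, and Krt10 and Krt1 had at most 10 counts. The summed level of 8 T cell markers was 3.23 to 8.17 CPM in Vehicle, 7.13 to 13.8 CPM in R788 + anti-PDL1 and 6.12 to 27.2 CPM in the irradiated group. Of these, Lck and Il7r passed the filter. Lck had 86, 36 and 53 counts in Vehicle, 136, 257 and 93 in R788 + anti-PDL1 and 55, 92 and 196 in the irradiated group. Il7r had 52, 31 and 19 counts in Vehicle, 109, 21 and 55 in R788 + anti-PDL1 and 15, 34 and 111 in the irradiated group. Cd3e, part of the T cell receptor complex, was counted 54 times in the third irradiated tumor and 1 to 5 times in all the rest. The part of skin cells and T cells in the Gata3 level was not tested. Gata3 overlaps the antisense gene Gm13256, which had 0 counts in all libraries, 4930412O13Rik, with 7 counts in irradiated replicate 3 and 0 elsewhere, and 9230102O04Rik with 0. Strand use in counting is not given in the sources used here, so reads of overlapping genes, also Inppl1 at Phox2a and Hand2os1 at Hand2, could not be separated.

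Gata2, which acts in sympathetic precursors and also in mast cells, endothelium and blood progenitors, was low. It was at 3.53, 1.26 and 1.42 CPM in the Vehicle tumors, 2.78, 6.99 and 3.61 CPM in R788 + anti-PDL1 and 4.20, 3.25 and 1.83 CPM in the irradiated tumors. All groups overlapped, with R788 + anti-PDL1 replicate 2 highest. The log2 difference of R788 + anti-PDL1 from Vehicle was 1.11 ± 0.56 (adjusted p = 0.507), of the irradiated group from Vehicle 0.57 ± 0.56 (adjusted p = 0.621) and between the treated groups -0.53 ± 0.55 (adjusted p = 0.601).

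Of 7 mast cell markers, all tested, edgeR called none in R788 + anti-PDL1 against Vehicle and DESeq2 called 5, beside 4.86% of all genes. An unadjusted p under 0.05 was found for 6, beside 11.7% of all genes. Above Vehicle without overlap were 6 of the markers, beside 2168 of the 15931 tested genes. The median log2 difference of the markers was 3.33, beside -0.02 over all tested genes. Their summed level was 14.96, 3.95 and 3.73 CPM in the Vehicle tumors, 53.4, 81.8 and 58.4 CPM in R788 + anti-PDL1 and 14.8, 8.47 and 6.71 CPM in the irradiated tumors. Counts were present for 6 or 7 of the 7 markers in every tumor, and the mast cell carboxypeptidase Cpa3 had 256 to 440 counts in R788 + anti-PDL1 against 7 to 52 in Vehicle. Gata1, a related factor of mast and red cells, had 8, 14 and 10 counts in R788 + anti-PDL1 and at most 3 in any other tumor. The sum of 5 red cell markers was lower in R788 + anti-PDL1, 37.8 to 65.3 CPM, than in Vehicle, 125 to 393 CPM, and it was 121, 35.6 and 32.8 CPM in the irradiated tumors, all below Vehicle. The sum of 7 endothelial markers, counted in every tumor, was 38.7 to 48.3 CPM in Vehicle, 48.4, 121 and 72.6 CPM in R788 + anti-PDL1 and 56.6 to 65.4 CPM in the irradiated group. R788 + anti-PDL1 replicate 2 was highest in Gata2 and in the mast cell and endothelial sums. The part of these cells in the Gata2 level was not tested.

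**Figure D4:**
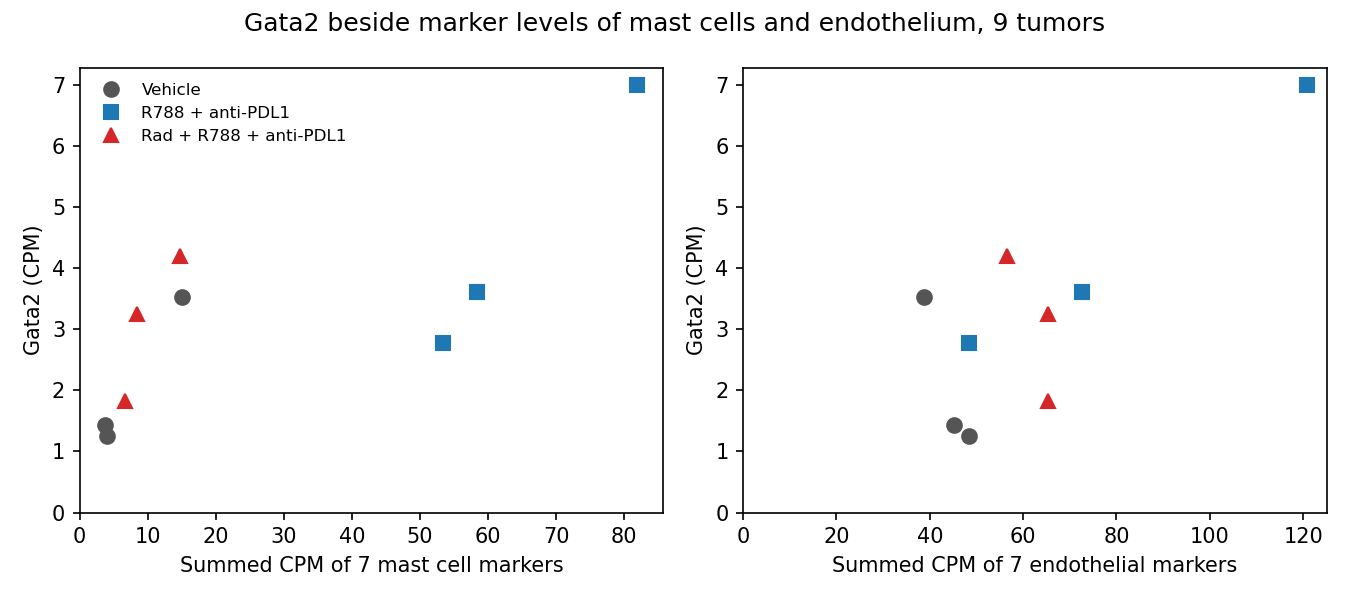
Gata2 (CPM) in 9 tumors against the summed CPM of 7 mast cell markers (left) and of 7 endothelial markers (right), 1 symbol per tumor and group. R788 + anti-PDL1 replicate 2 is highest on all 3 measures, and the 3 R788 + anti-PDL1 tumors have mast cell sums of 53.4 to 81.8 CPM.

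Tbx2, a T-box repressor that acts on cell cycle inhibitors, was at 19.5, 34.3 and 35.1 CPM in the Vehicle tumors, 77.2, 34.7 and 70.2 CPM in R788 + anti-PDL1 and 25.8, 25.9 and 22.3 CPM in the irradiated tumors. R788 + anti-PDL1 replicates 1 and 3 were above every other tumor, and replicate 2 was level with the upper Vehicle tumors. The irradiated tumors were close together, inside the Vehicle range and all below R788 + anti-PDL1. The log2 difference between the treated groups was -1.30 ± 0.33 (adjusted p = 0.193 by edgeR and 0.0146 by DESeq2). R788 + anti-PDL1 differed from Vehicle by 1.03 ± 0.33 (adjusted p = 0.236) and the irradiated group by -0.26 ± 0.33 (adjusted p = 0.698).

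**Figure D5:**
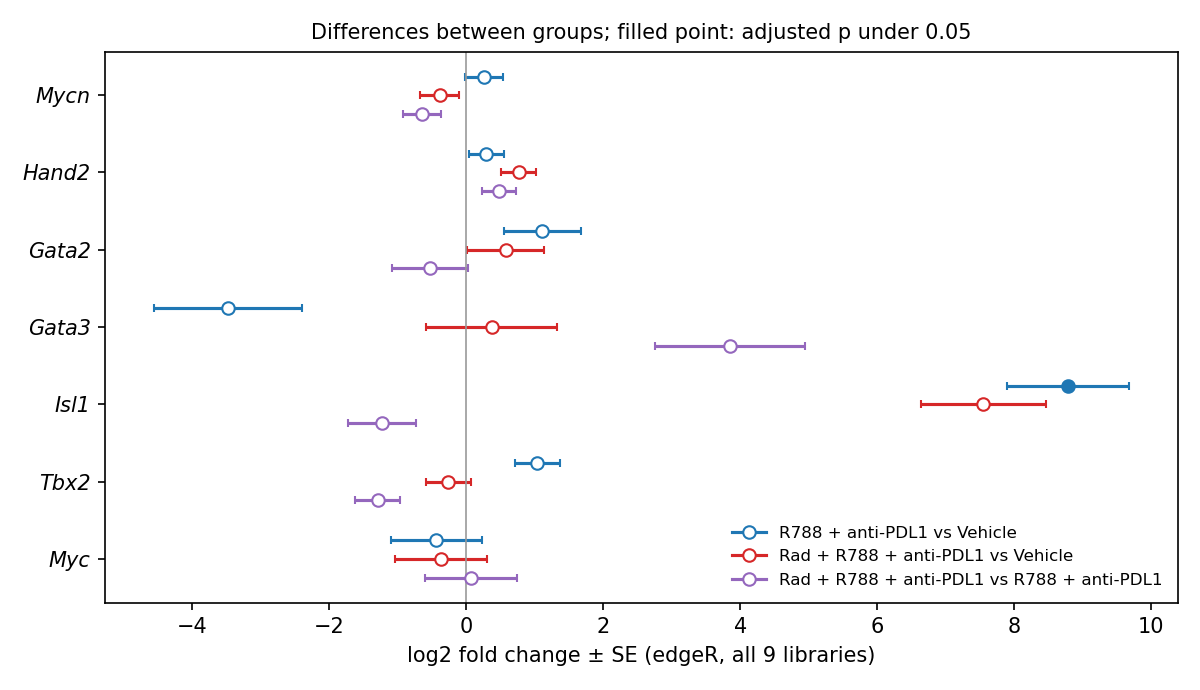
Log2 fold change ± SE of the 7 tested genes in 3 comparisons (edgeR fit of 9 libraries), with a filled symbol where the adjusted p was under 0.05. Isl1 in R788 + anti-PDL1 against Vehicle is the 1 filled symbol, and the SE is widest for Gata3.

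Of 21 other factors of the adrenergic circuit, 12 were tested and edgeR called none in any of the 3 comparisons. An unadjusted p under 0.05 was found for 4, 1 and 2, beside 11.7%, 13.2% and 18.4% of all tested genes. DESeq2 called 2, 0 and 1, namely Ebf1 and Meis2 in the first and Ebf1 in the last. It called 4.86%, 3.85% and 5.62% of all genes to which it gave an adjusted p. The same shares stand beside the counts of the lists that follow. Their median log2 difference was 0.01 for R788 + anti-PDL1 against Vehicle, -0.08 for the irradiated group against Vehicle and -0.16 for the irradiated group against R788 + anti-PDL1, beside -0.02, 0.05 and 0.04 over all tested genes. Ebf1, a factor of B cells, adipocytes and neurons, differed by 3.23 ± 0.91 in R788 + anti-PDL1 (adjusted p = 0.173), with 36, 394 and 152 counts against 11, 8 and 27. Meis2, a homeodomain cofactor that was abundant in all tumors, differed by -0.86 ± 0.20 there (adjusted p = 0.105), at 74.4, 98.3 and 74.5 CPM against 179, 137 and 134 CPM. Of 15 partners and cofactors of the members, 12 were tested and neither tool called any, with 1, 1 and 0 at an unadjusted p under 0.05 by edgeR and medians of 0.0025, 0.04 and 0.03. The GATA cofactor gene Zfpm2 failed the filter. It had 0 counts in the Vehicle tumors, 46, 3 and 42 in R788 + anti-PDL1 and 1, 7 and 4 in the irradiated tumors, and it was named after its values were seen.

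In the MYC and MAX network, 10 of 11 genes were tested and edgeR called none, with medians of 0.04, -0.29 and -0.30. An unadjusted p under 0.05 was found for 1, 2 and 1, beside 11.7%, 13.2% and 18.4% of all tested genes. DESeq2 called Mycl in the first comparison and Mxi1 in the second, beside 4.86% and 3.85% of all genes. Mxi1, which encodes a MAX partner that opposes MYC, was at 46.5 to 71.3 CPM in the irradiated tumors and 104 to 122 CPM in Vehicle (log2 -0.91 ± 0.24, adjusted p = 0.221). Mycl, the third MYC paralogue, named after its values were seen, had 57, 48 and 79 counts in R788 + anti-PDL1 against 20, 11 and 19 in Vehicle (log2 1.52 ± 0.48, adjusted p = 0.233). All 33 MYC target genes of ribosome assembly, nucleotide synthesis and metabolism were tested and neither tool called any, with 0, 1 and 3 at an unadjusted p under 0.05 by edgeR and medians of -0.16, 0.15 and 0.30. Their summed level was 13952 to 14486 CPM in Vehicle, 10925 to 12698 CPM in R788 + anti-PDL1, and 21131, 13575 and 11729 CPM in the irradiated tumors. Irradiated replicate 1, with the lowest Mycn and Myc levels of all tumors, had the highest target sum. The sum is weighted to abundant targets, and the targets did not move as a set there. Ncl and Npm1, at 3767 and 3908 CPM, were at their highest in that tumor, while Mybbp1a and Cad, at 257 and 135 CPM, were at their lowest. Without irradiated replicate 1 the irradiated medians were -0.12 against Vehicle and 0.0077 against R788 + anti-PDL1.

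Among the 6 tested genes for sympathetic products edgeR called none. An unadjusted p under 0.05 was found for 2, 2 and 1, beside 11.7%, 13.2% and 18.4% of all tested genes. DESeq2 called Ddc in the first comparison and Gch1 in the other 2, beside 4.86%, 3.85% and 5.62% of all genes. Ddc was at 7.72, 3.44 and 5.16 CPM in R788 + anti-PDL1 against 19.7, 14.3 and 15.8 CPM in Vehicle (log2 -1.61 ± 0.44, adjusted p = 0.155). Gch1, which makes the cofactor of tyrosine hydroxylase and of nitric oxide synthases, was at 17.5 to 19.9 CPM in the irradiated tumors against 7.86 to 11.2 CPM in Vehicle (log2 0.97 ± 0.24, adjusted p = 0.192). The medians of the list were 0.08, 0.02 and 0.17.

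Of 17 mesenchymal transcription factors 15 were tested, with medians of -0.23, -0.13 and -0.19. An unadjusted p under 0.05 was found for 7, 3 and 4, beside 11.7%, 13.2% and 18.4% of all tested genes. DESeq2 called 4, 3 and 2 of them, beside 4.86%, 3.85% and 5.62% of all genes. These were Tbx18, Twist1, Twist2 and Zeb2 in the first comparison, Prrx1, Twist1 and Zeb2 in the second and Prrx1 and Runx2 in the last. Zeb2, a zinc finger repressor of epithelial genes that macrophages also express, was the 1 call by edgeR, in R788 + anti-PDL1 against Vehicle. It was at 45.1, 44.4 and 45.0 CPM against 9.39, 8.94 and 8.77 CPM in Vehicle (log2 2.31 ± 0.32, adjusted p = 0.0383), and at 25.2, 19.7 and 49.5 CPM in the irradiated tumors. The macrophage sum was 393 to 440 CPM in R788 + anti-PDL1 and 184 to 385 CPM in Vehicle, and its part in Zeb2 was not tested. The Zeb2 call was lost without any 1 of the Vehicle replicates 1 to 3 (adjusted p 0.0573, 0.164 and 0.209), any 1 of the R788 + anti-PDL1 replicates 1 to 3 (0.122, 0.0585 and 0.216) or irradiated replicate 2 (0.0569). Twist1, a partner of HAND2 among basic helix-loop-helix factors, was above Vehicle in all 6 treated tumors, at 62.0 to 88.6 CPM against 19.3 to 41.4 CPM, and missed the threshold by edgeR (adjusted p = 0.0747 and 0.0963) but not by DESeq2. Twist2, its close relative, was at 21.6 to 28.4 CPM in R788 + anti-PDL1, below the 37.0 to 59.6 CPM of Vehicle (log2 -0.95 ± 0.26, adjusted p = 0.155 by edgeR). Prrx1, a homeodomain factor of mesenchyme, was at 38.8, 59.9 and 58.5 CPM in the irradiated tumors, below the 94.0 to 221 CPM of Vehicle (log2 -1.70 ± 0.38, adjusted p = 0.155) and the 90.7 to 193 CPM of R788 + anti-PDL1 (log2 -1.47 ± 0.38, adjusted p = 0.193). Tbx18, Twist1, Twist2 and Runx2 were named after their values were seen.

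For each tested member, the 3 genes with the most similar log2 CPM over the 9 tumors were sought among 11642 genes that averaged 50 counts or more. Isl1 was most like Tspan13 (Pearson r = 0.972), Tex261 (0.970) and Efr3b (0.964). Of these, Tspan13 was called in R788 + anti-PDL1 against Vehicle at a log2 difference of 2.33 ± 0.37 and Efr3b at 1.83 ± 0.29 (adjusted p = 0.0383 for both), while Tex261 was not. Their calls were held in 10 and 8 of 18 alternatives, and both were lost when R788 + anti-PDL1 replicate 3 was left out (adjusted p = 0.216). Both genes were picked by likeness to Isl1 over the same tumors, so their calls are no separate finding. Tbx2 was most like Usp36 (0.989), Runx2 (0.951), an osteoblast factor of the mesenchymal list, and Lrrc45 (0.946). Hand2 was most like Mtfp1 (0.989), Nob1 (0.987) and Anapc5 (0.984), and Mycn most like Apc2 (0.919), Hspa12a (0.914) and Zfp120 (0.912). Gata3 was most like Spryd3 (0.956), Gata2 like Ppp3ca (0.955) and Myc like Hpse (0.974). These are the highest values of many, over points that share groups and libraries, and they describe these tumors only.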

How the data were processed

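The deposited table held the authors' estimated counts per gene symbol from Salmon 1.4.0, as whole numbers, in 9 whole-tumor libraries. The authors aligned reads to mm10 with STAR 2.6.1d in a bcbio pipeline. The annotation release is not given in the sources used here. The labels name whole tumor as the tissue but macrophages in the extraction text, and the labels and the methods of the study differ on the sequencer and read layout.

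Groups came from the treatment labels. Genes that passed filterByExpr (minimum count 10) were tested, 15931 in all, with edgeR 4.0.16 (R 4.3.3), TMM factors and the robust quasi-likelihood F test in 1 fit of the 9 libraries, with Benjamini-Hochberg adjustment over all tested genes and a threshold of 0.05. The p-values measure the spread between tumors, whose litters or batches the labels do not give. The SE printed with an edgeR log2 difference is its size divided by the square root of the F statistic, not a separate estimate. CPM and levels per kilobase used TMM scaling and GENCODE M21 exon lengths. Similarity used log2 CPM with a prior count of 2, and the ratio of Mycn to Myc a pseudocount of 0.5. The scripts were tested on simulated counts. Alternatives were DESeq2 1.42.0, limma 3.58.1 (voom), other scaling, filters, a replicate block and each library left out. DESeq2 without irradiated replicate 1 was added after the data were seen.

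The members and the gene lists were chosen with earlier results of these data known. Named were the members, every called gene of a list, the tested list genes of highest and lowest log2 fold change with a mean count of at least 50, the 3 most similar genes of each member, and genes that overlap a member. Exceptions are marked. Some genes of the circuit are not reported here. Promoter sequences are from RefSeq (GRCm38.p6).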

Additional observations from a re-analysis of the deposited data

How the results depend on the processing

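In the order R788 + anti-PDL1 against Vehicle, irradiated against Vehicle and irradiated against R788 + anti-PDL1, edgeR called 1, 0 and 0 members and 108, 7 and 1 genes. DESeq2 called 2, 1 and 2 members and 770, 611 and 822 genes, and without irradiated replicate 1 it called 3, 1 and 2 members and 2098, 951 and 864 genes. Limma-voom called 8 genes in the last comparison, and with sample quality weights 5, 2 and 4 members and 4831, 2010 and 3089 genes. Total counts without TMM, which moved the median of all genes from -0.02 to 0.13 in the first and from 0.04 to -0.14 in the last comparison, called 0 members in the first and 0, 1 and 0 genes (unadjusted p under 0.05: 1650, 1640 and 2250). Without the low-count filter there were 199, 70 and 24 genes and 1 member in the second comparison. With only the 6 libraries compared, 594, 1 and 0 genes were called. Leaving out 1 library gave 0 to 1 members in the first 2 comparisons and 0 in the last, and 0 to 856, 1 to 57 and 0 to 21 genes. The highest 3 came without irradiated replicate 1, and 0 genes were left in the first comparison without R788 + anti-PDL1 replicate 1 or 3 or Vehicle replicate 2 or 3. The cause was not tested.

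The samples share replicate numbers, which the labels tie to nothing. Deviations from the group means correlated at -0.05 to 0.23 (median 0.01) between same-numbered tumors. Between the others they correlated at -0.23 to 0.12 (median 0.002). The highest values were 0.23 for replicate 1 and 0.19 for replicate 2 of the irradiated and Vehicle groups. With the replicate block 0 members were called in the first comparison (Isl1 adjusted p = 0.0667) and 0, 3 and 0 genes (unadjusted p under 0.05: 1775, 1949 and 2789).

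Over the alternatives, 341 log2 fold changes of members kept their direction and side of the threshold, 21 passed it, 8 lost it, all of them Isl1 in R788 + anti-PDL1 against Vehicle, and 8 reversed. Gata3 in the irradiated group against Vehicle ranged from -0.21 without Vehicle replicate 2 to 1.99 without Vehicle replicate 1. Myc there ranged from -1.31 without irradiated replicate 3 to 0.13 without irradiated replicate 1, with 0.10 by DESeq2 without the latter. Myc in the irradiated group against R788 + anti-PDL1 was -0.10 by limma-voom, -0.027 with the replicate block, and ranged from -0.87 to 0.61 with 1 library left out, with -0.23 and -0.05 without R788 + anti-PDL1 replicates 2 and 3. The log2 ratio of Mycn to Myc ranged with 1 library left out from -0.17 (without irradiated replicate 1) to 1.04 for the irradiated group against Vehicle, and from -0.97 to 0.25 (without irradiated replicate 3) against R788 + anti-PDL1. At 0 to 3 counts, differences of Phox2a were not detectable at this depth.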
